A study of Mus musculus with 6 samples.

Results

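Cytosolic ribosomal protein genes were followed through 6 libraries of mouse fibroblasts early in forced conversion towards heart muscle cells. Members were the rows of the count table whose symbol has the standard form for a protein of the large subunit (Rpl followed by a number, Rplp0 to Rplp2) or of the small subunit (Rps followed by a number, Rpsa), with at most one closing letter a, x or l. Of 24516 genes in the table, 82 fit this form, 50 of the large and 32 of the small subunit. GENCODE release M21 annotates 80 of them as protein-coding, and Rpl32l and Rps4l as processed pseudogenes. After the filter on low counts 77 of them were tested, 46 large and 31 small, among 13427 genes tested in all. The cells were the line iMGT-Myh6-eGFP-MEF, mouse embryonic fibroblasts with an eGFP reporter named for Myh6. In this line doxycycline, at 1 ug/mL, induces the transcription factors Mef2c, Gata4 and Tbx5, which together reprogram fibroblasts. The 3 groups, of 2 libraries each, received a small interfering RNA named siH1f0, siJunb or siControl on the day before induction, and doxycycline was given to all of them, so no group lacks the induced factors or a transfection. H1f0 encodes a linker histone and Junb a component of AP-1 dimers. Harvest was on day 1 of induction by the labels, but on day 3, from sorted GFP-positive cells, by the text on the whole series. All libraries come from a single line, and the labels call the libraries of a group biological replicates without saying what separates them, so every p-value below measures the spread between these libraries.

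Each cytosolic ribosome joins a large subunit, which forms peptide bonds, to a small subunit, which reads the messenger RNA. Their proteins are needed in nearly equal numbers, and the genes that encode them sit on many chromosomes and are transcribed strongly in growing cells such as fibroblasts. Most of their messenger RNAs begin with a cytosine followed by an unbroken run of pyrimidines, the 5′ terminal oligopyrimidine (TOP) tract, through which the mTOR pathway and the RNA-binding protein LARP1 control translation and stability. Many of these genes carry small nucleolar RNA (snoRNA) genes in their introns, and mammalian genomes hold many processed pseudogenes copied from their messages.

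The starts of some members called below at an adjusted p under 0.05 follow, because the TOP tract is the sequence through which the class is known to be controlled. They do not show how common a tract is among called members. In siH1f0 against siJunb 1 rose and 4 fell with an annotated tract, and 0 and 12 without one (12.2% and 13.8% of all genes). Each line gives the first 30 bases of an annotated coding transcript (GENCODE release M21, build GRCm38, which mm10 names as well), 5′ to 3′, with a TOP tract in capitals. A tract was scored where a transcript starts with C followed by at least 4 letters that are each C or T. Of a gene's coding transcripts the one with the longest tract was taken, or the principal transcript where none had a tract.
Rpl4: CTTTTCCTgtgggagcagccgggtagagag
Rps2: CTTCTTCTTCTTCgggagaacacgtgagtc
Rps15a: CTTTCCacagccaccatggtgcgaatgaat
Rpl37: CTCTTCCggtctctttggcctcgccggtag
Rpl15: cgggagtatggaatagtcagtcccgcccag
Rpl7a: atctgcggccacttacttatcccccacaat
The transcripts lie at chr9:64173375-64178666 (plus strand) for Rpl4, chr17:24720110-24721929 (plus) for Rps2, chr7:118104378-118115256 (minus) for Rps15a, chr15:5116645-5119140 (plus) for Rpl37, chr14:18269000-18270626 (minus) for Rpl15 and chr2:26910764-26913318 (plus) for Rpl7a. An annotated coding transcript began with such a tract in 22 of 80 members that have a principal transcript (27.5%), 10 of 49 large (20.4%) and 12 of 31 small subunit genes (38.7%), against 1099 of 21821 other protein-coding genes (5.04%). With principal transcripts alone the share was 10 of 80 members (12.5%) against 2.25% of other genes. The annotated start of Rpl15 and Rpl7a held no tract. An annotated start need not be the base at which these cells begin the message.

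The libraries held 59380780 and 65746378 counts in siH1f0, 63888652 and 48690447 in siJunb, and 85979630 and 65998575 in siControl. Values below are counts per 1000000 counts of the library (CPM) or, where genes are set side by side, CPM per kilobase of the gene length given in the count table. Such values are shares of a library, so fewer cells of a type and less RNA per cell cannot be told apart. The targets checked the labels. Junb had 30.4 and 31.7 CPM in siH1f0, then 10.5 and 8.73 CPM in siJunb, against 39.5 and 35.6 CPM in siControl. H1f0 had 52.3 and 55.3 CPM in siH1f0, then 653 and 638 CPM in siJunb, against 808 and 741 CPM in siControl. Of 10 fibroblast markers 8 passed the filter, and the list summed to between 11037 and 13437 CPM per library. Of those 8, 2 rose and 0 fell in each comparison with siControl, and 2 rose and 4 fell in siH1f0 against siJunb (adjusted p under 0.05). The 9 cardiomyocyte markers, 6 of which passed the filter, summed to 144 and 155 CPM in siH1f0, 114 and 115 CPM in siJunb, against 148 and 130 CPM in siControl. Of those 6, 0 rose and 2 fell in siJunb against siControl (median log2 change -0.86), 1 and 0 in siH1f0 against siControl (0.06), and 4 and 0 in siH1f0 against siJunb (0.91). The leukocyte list summed to at most 3.59 CPM with Ptprc at 0, the endothelial list to at most 0.304 CPM and the epithelial list to at most 0.0337 CPM with Krt8, Krt18 and Krt5 at 0. Smooth muscle markers summed to 119 and 123 CPM in siH1f0, 81.2 and 83.2 CPM in siJunb, against 72.1 and 65.5 CPM in siControl. Of the 4 that passed the filter, 1 rose and 0 fell in each of the 3 comparisons. Of 3 leukocyte markers that passed, 1 rose and 0 fell, 0 and 0, and 1 and 1 in the same order of comparisons. The part of these markers in the changes below was not tested.

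Ribosomal protein genes were among the most abundant messages, and most of them lay close to one another. Per kilobase and averaged over the 6 libraries, the 46 large subunit genes tested had a median of 309 CPM per kb and the 31 small subunit genes a median of 403 CPM per kb, against 10.2 CPM per kb for the other genes tested. Members made up 20 of the 50 genes with the highest level per kilobase, and 56 of the top 200. Among the 77 members tested, 57 lay within 2-fold of their common median and 6 lay more than 10-fold under it. The order of the members by level was nearly the same in each group (Spearman's rho across the 77 genes 0.997 for siH1f0 with siControl, 0.981 for siJunb with siControl and 0.978 for siH1f0 with siJunb, given as a description).

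The highest large subunit genes were Rplp1 (1534 CPM per kb, range over libraries 1405 to 1673), Rplp0 (1390, range 1303 to 1488), Rpl41 (1226, range 1150 to 1329) and Rpl35 (700.3, range 617 to 778). Rplp1 and Rplp0 encode proteins of the stalk, which recruits translation factors, Rpl41 the smallest protein of the ribosome, and Rpl35 a protein at the rim of the exit tunnel. The ranges of Rplp1 and Rplp0 overlapped, as did those of Rplp0 and Rpl41, and Rpl35 lay below all 3. The range of Rpl35 overlapped that of Rpl32, the next gene (range 627 to 751). The highest small subunit genes were Rps15, whose protein has a tail that reaches the decoding site (727 CPM per kb), Rps26, which contacts the mRNA near the exit of its channel (711), Rps29, a zinc-binding protein of the head (698), and Rps28 (665), and the ranges of neighbours among them overlapped. For some members the table gives a length shorter than that of the principal transcript in GENCODE M21 (452 against 946 bases for Rpl35). The 2 lengths thus come from different gene models, and ranks shift when the principal transcript is used. By transcript length Rpl35 moved from rank 4 to rank 20 of the large subunit and Rps26 from rank 2 to rank 9 of the small subunit. With transcript lengths the medians were 302 CPM per kb for 45 large and 381 CPM per kb for 31 small subunit genes.

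**Figure D1:**
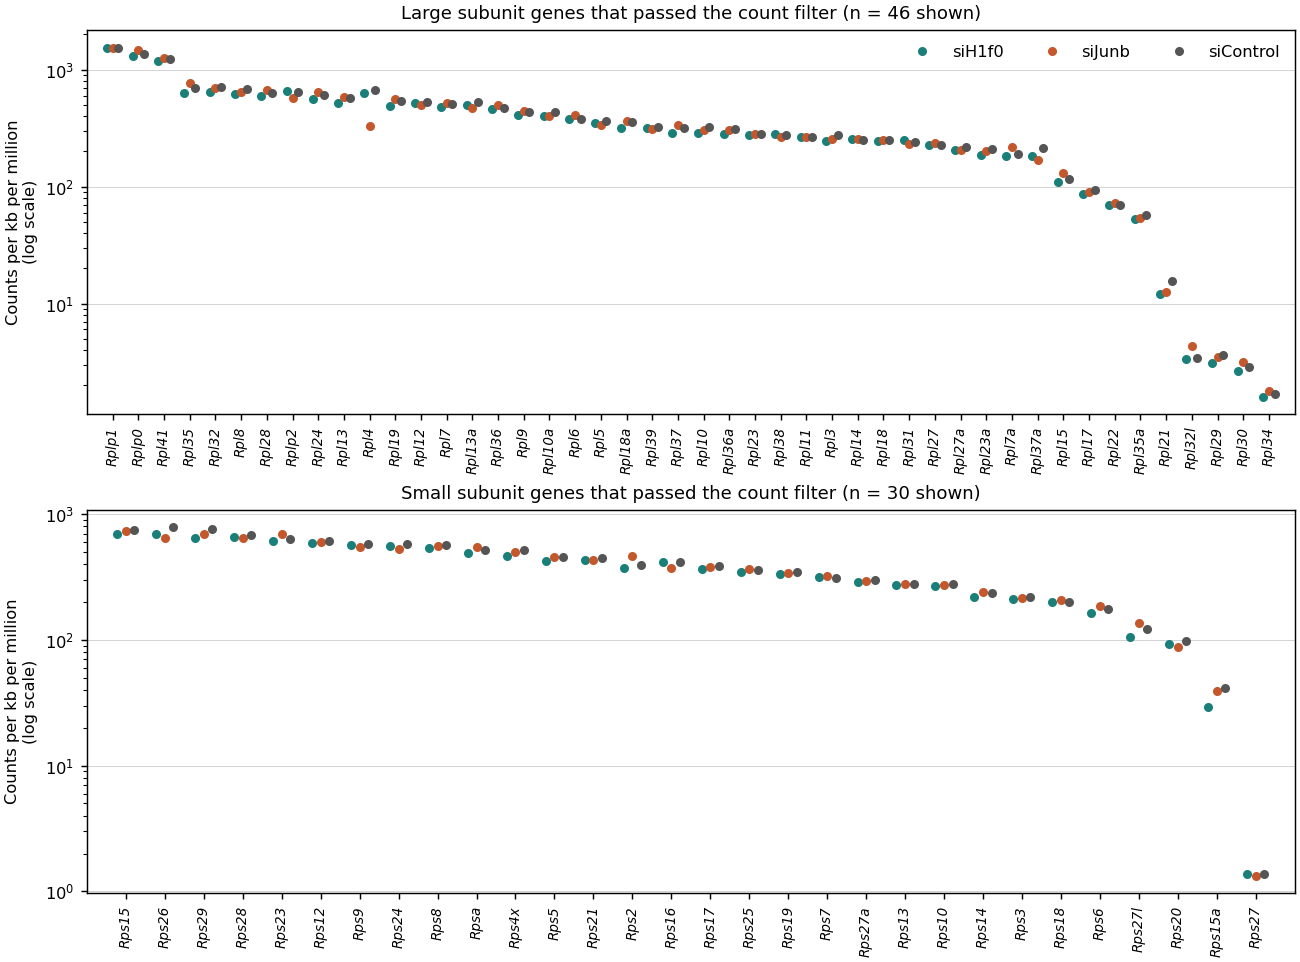
Level of tested members (all but 1 of the small subunit) in CPM per kb on a log axis, one panel per subunit, members ordered by their mean over the 6 libraries; each point is the mean of the 2 libraries of a group (siH1f0, siJunb, siControl). In most members the points lie close together, with the 3 groups on top of each other, Rpl4 has its siJunb point well below the other two, and Rpl34, Rpl30, Rpl29, Rpl32l and Rps27 lie near the bottom.

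A few genes of core ribosomal proteins were counted at very low levels. Rps27, a zinc-binding protein of the small subunit, had 49 and 49 counts in siH1f0, 37 and 46 in siJunb and 85 and 39 in siControl, a mean of 1.35 CPM per kb. The lowest large subunit genes tested were Rpl34 (1.69 CPM per kb), Rpl30 (2.89), Rpl29 (3.42) and Rpl32l (3.68), and Rpl21 followed at 13.4. Rpl26, which encodes a protein at the rim of the exit tunnel, had 1 count in siControl 1 and 0 in the other 5 libraries, and did not pass the filter. All of these but Rpl32l encode standard proteins of the ribosome. Reads from such genes can match elsewhere: 77 members share 50-base words with at least 1 annotated pseudogene, a median of 8 pseudogenes each, and a median of 45.9% of a member's 50-base words occur in no other annotated gene. For Rps27 this share was 1.35%, the lowest of all members, for Rpl30 23.6%, for Rpl29 33.4%, for Rpl34 49.4% and for Rpl26 28.7%. Rpl35 had a share of 4.91% and a level of 700.3 CPM per kb by the table's length and 335 by the length of the principal transcript. Across 76 members the level was weakly related to this share (Spearman's rho 0.12, a description over genes that share pseudogene families and libraries). How reads with several matches were treated is not given in the sources used here, and its part in the low counts was not tested.

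**Figure D2:**
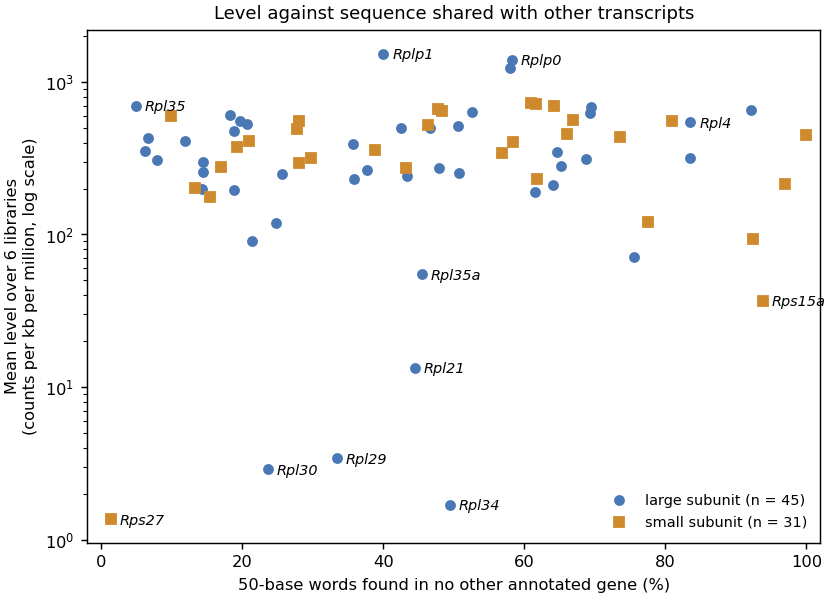
Mean level over the 6 libraries (CPM per kb, log axis) against the percent of 50-base words of the principal transcript that occur in no other annotated gene, for 45 large (circles) and 31 small (squares) subunit genes. Rps27 is at the far left bottom, while Rpl34, Rpl29, Rpl30 and Rpl21 lie low at middle shares, and other members with shares under 20% have levels over 100.

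The remaining rows that did not pass the filter were divergent copies or a pseudogene row. Rpl3l, the muscle form that replaces Rpl3 in heart and skeletal muscle, had 0 and 5 counts in siH1f0, 0 and 2 in siJunb and 1 and 0 in siControl, against 138271 counts for Rpl3 over the 6 libraries. Rpl10l, a testis form of Rpl10, had 0 counts in every library, where 3 counts would be 0.0349 to 0.0616 CPM. Rpl39l, another germ cell form, had 2 counts, all in siControl 1, and the pseudogene row Rps4l 2 counts, all in siH1f0 1, against 53435 counts for Rpl39 and 187777 for Rps4x, the X-linked main form. These 4 genes and Rpl26 are the 5 members that did not pass. Rps27l, a paralogue of Rps27 that responds to p53, was by contrast well counted, at 105 CPM per kb in siH1f0, 135 in siJunb and 123 in siControl, against 1.37, 1.33 and 1.37 CPM per kb for Rps27 in the same groups. Besides Rps27, the tested small subunit genes Rps15a (36.8 CPM per kb over the 6 libraries) and Rps20 (93.0) lay below Rps27l (121). This order rests on the lengths in the table, 5134 bases for Rps15a and 3446 for Rps20, against 598 for Rps27l. In CPM both lay above Rps27l in every library, with siControl means of 214 for Rps15a, 336 for Rps20 and 73.5 for Rps27l.

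Members took up a similar share of every library, with siControl 1 the highest. They held 2.26% and 2.33% of counts in siH1f0, 2.35% and 2.39% in siJunb, and 2.58% and 2.26% in siControl. The knockdown libraries lay between the siControl libraries, except siH1f0 1, which was marginally below both. The siControl gap was wider than that of either knockdown, and 2 libraries against 2 cannot go below p = 0.333 in an exact permutation test (two-sided), so no test was made of this share. The large subunit genes held 1.58 to 1.62 times as many counts as the small subunit genes in every library. Within siControl, library 1 was above library 2 for 75 of 77 members, by a median of 0.18 on the log2 scale. Library 1 was above library 2 for only 15 of 77 members in siH1f0 (median -0.04) and 20 of 77 in siJunb (median -0.03). The siControl gap was not limited to members: among other genes tested, 802 of 1017 with a length of at most 1000 bases were higher in siControl 1, by a median of 0.15, whereas the median was -0.005 for 12333 longer genes. The ribosomal RNA precursor row Rn45s took 0.308% and 0.348% of counts in siH1f0, 0.655% and 0.499% in siJunb, and 1.90% and 0.627% in siControl. What set siControl 1 apart was not tested, and the member counts of each comparison with siControl are therefore given with and without it. Genes outside the members are given from the fit to all 6 libraries alone.

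**Figure D3:**
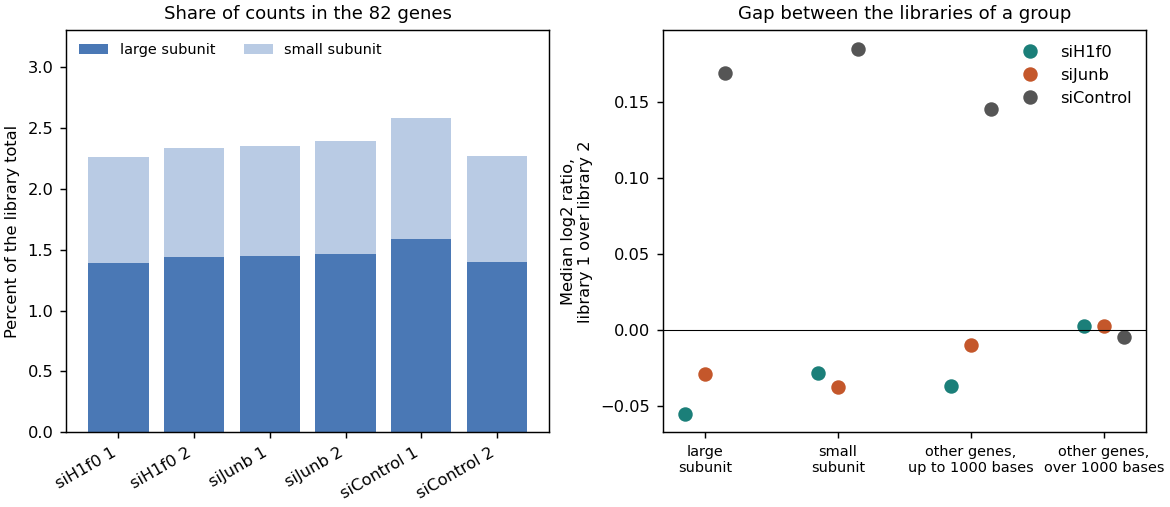
Left, percent of each library's counts in large (dark) and small (light) subunit genes for the 2 libraries of siH1f0, siJunb and siControl; right, median log2 ratio of library 1 over library 2 within each group for large and small subunit genes and for other tested genes up to and over 1000 bases. The share is highest in siControl 1 at 2.58%, and the siControl ratio lies well above 0 for both subunits and for other short genes but not for longer ones.

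In siJunb a single ribosomal protein gene was strongly lower, and the rest lay close to siControl. Rpl4, whose protein reaches with a long loop into the exit tunnel of the large subunit, stood at 890 and 899 CPM in siH1f0, 466 and 467 CPM in siJunb, against 982 and 919 CPM in siControl. The siJunb libraries agreed closely and lay far below all 4 others. Rpl4 averaged 467 ± 0.69 CPM in siJunb and 951 ± 44.4 CPM in siControl (SD, n = 2 each), and fell by 0.99 ± 0.05 on the log2 scale (SE, edgeR adjusted p = 1.24e-05). The call held under each of the 16 alternatives run, with an adjusted p of at most 0.002. Rpl4 (chr9:64173375-64178666) is a protein-coding gene with 5 annotated snoRNA genes inside it, among them Snord16a. Of its 50-base words 83.6% are found in no other annotated gene, and it shares words with 1 pseudogene.

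**Figure D4:**
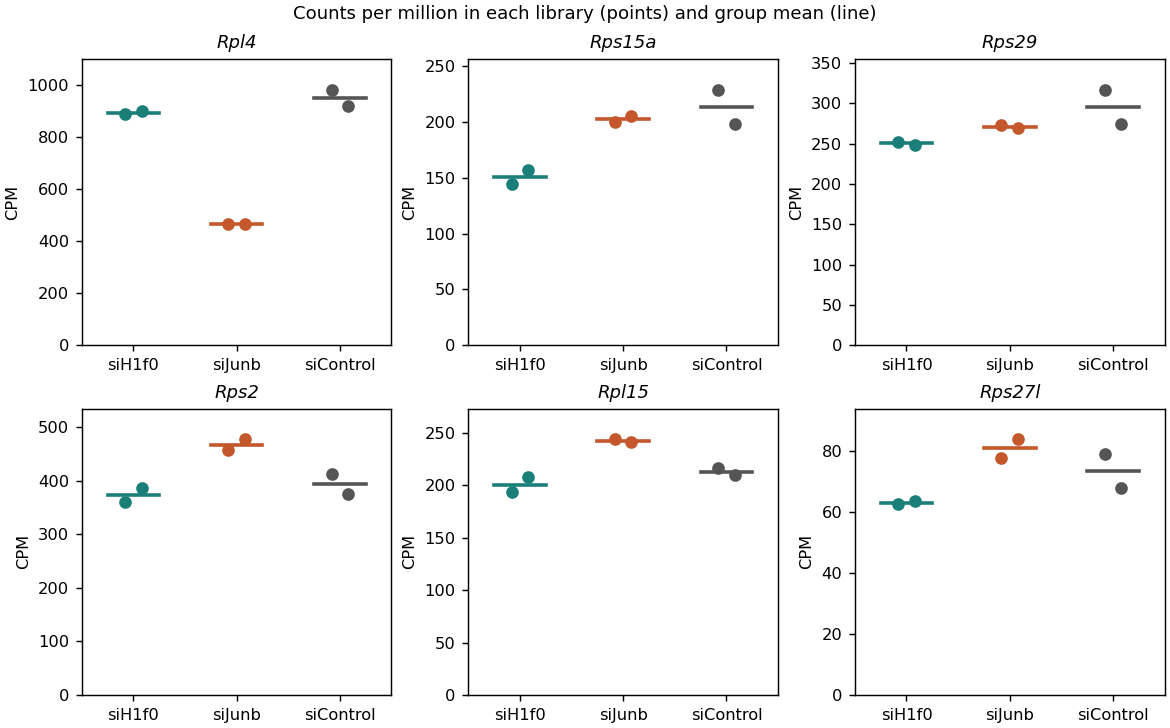
CPM in each of the 6 libraries (points) with the group mean (line) for Rpl4, Rps15a, Rps29, Rps2, Rpl15 and Rps27l; groups run siH1f0, siJunb, siControl and axes start at 0. Rpl4 is low in both siJunb libraries (466 and 467) and Rps15a low in both siH1f0 libraries (145 and 156), while the shifts in the other 4 genes are small beside their levels.

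In all, 6 of 77 members were called between siJunb and siControl at an adjusted p under 0.05 (7.79%), against 16.5% of all genes tested. Of these 4 were higher (8.63% of all genes) and 2 lower (7.82% of all genes), and 14 of 77 members had an unadjusted p under 0.05, against 4263 of all 13427 genes tested. By subunit, 2 large genes rose and 1 fell, and 2 small genes rose and 1 fell. The median log2 change was 0.04 for large and 0.006 for small subunit genes, against 0.002 for all genes tested, and 68 members lay within 0.2 of 0. With total counts as the only scaling, the small subunit median was -0.03. Values of siJunb and siControl did not overlap for 8 higher (23.3% of all genes) and 14 lower members (34.3% of all genes), while in either direction this held for 57.5% of all genes tested.

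The members that rose did so by little. Rps2, a protein of the mRNA entry channel that acts in decoding fidelity, was at 458 and 477 CPM in siJunb, against 413 and 375 CPM in siControl, which is 0.28 ± 0.06 higher on the log2 scale (SE, edgeR adjusted p = 0.0138). Rpl15, a protein that binds the core of the large subunit RNA, was at 244 and 242 CPM in siJunb, against 216 and 210 CPM in siControl, or 0.22 ± 0.05 higher (adjusted p = 0.0184). Both siJunb libraries lay above both siControl libraries for each gene. Rpl7a, a surface protein of the large subunit, rose by 0.24 (adjusted p = 0.0241), and Rps23, which lines the decoding centre, by 0.18 (adjusted p = 0.0375). Rpl32l was 0.35 higher, Rpl37a 0.30 lower and Rpl21 0.29 lower in siJunb by fitted value, and none of these passed the test (edgeR adjusted p = 0.249, 0.181 and 0.13). These values rested on single libraries. Rpl32l was 0.60 without siJunb 1 and 0.08 without siJunb 2, Rpl37a -0.02 without siControl 1 and -0.54 without siControl 2, and Rpl21 -0.12 and -0.45 without the same siControl libraries. Without siControl 2 Rpl37a and Rpl21 passed the test, as they did with no count filter.

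Apart from Rpl4, the calls against siControl depended on single libraries. Without siControl 1 there were 44 higher and 2 lower members (33.6% of all genes called), and without siControl 2 there were 6 higher and 35 lower (40.2% of all genes called). Without any 1 of the 4 knockdown libraries fewer members were called than with all 6. The share of all genes called in those fits is not given. Rps2 lost its call without either siJunb library. Rpl15, Rpl7a and Rps23 lost theirs without any 1 of the 4 knockdown libraries and with only the 4 libraries compared, and Rps23 also with total counts as the only scaling and with the replicate number as a block (adjusted p up to 0.254).

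In siH1f0 nearly all members had small negative differences from siControl, few of which passed the test. Rps15a, a protein of the small subunit body near its central RNA domain, was at 145 and 156 CPM in siH1f0, 200.1 and 205 CPM in siJunb, against 229 and 198 CPM in siControl. Both siH1f0 libraries lay below the other 4. Rps15a fell by 0.52 ± 0.07 on the log2 scale in siH1f0 against siControl (SE, edgeR adjusted p = 0.00364), a call lost in 1 of the 16 alternatives, without siH1f0 1 (adjusted p = 0.0815). The table gives Rps15a a length of 5134 bases because long transcripts are annotated there, and counts from short and long transcripts cannot be told apart. Rps29 stood at 252 and 248 CPM in siH1f0 and 317 and 275 CPM in siControl, and fell by 0.26 ± 0.06 (SE, adjusted p = 0.0464), a call that ended with total counts as the only scaling, with the replicate number as a block, with only the 4 libraries compared and without any 1 of the 4 knockdown libraries (adjusted p up to 0.303).

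These 2 small subunit genes were the only members called between siH1f0 and siControl, 2.6% of 77, against 6.55% of all genes tested. By edgeR 0 were called higher (2.27% of all genes), as by DESeq2 and limma-voom, and 2 were lower (4.27% of all genes), while 15 of 77 members had an unadjusted p under 0.05, against 3060 of all 13427 genes. Fitted changes were negative for 72 of 77 members, 43 of 46 large and 29 of 31 small, with medians of -0.10 and -0.08 against 0.003 for all genes tested. The groups did not overlap for 21 lower (22% of all genes) and 0 higher members (28.7% of all genes), while 50.7% of all genes did not overlap. Rpl21 was 0.38 and Rpl37a 0.26 lower in siH1f0 without passing the test (adjusted p = 0.0987 and 0.319), and the highest fitted values were 0.04 for Rpl31 and 0.01 for both Rplp2 and Rpl38. Without siControl 1 and without siControl 2, Rpl21 was at -0.21 and -0.53, and Rpl37a at 0.03 and -0.49.

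This pattern depended on which siControl library entered. Without siControl 1, 7 members were higher and 5 lower (21% of all genes called), and the medians were -0.01 for large and 0.003 for small subunit genes. Without siControl 2, 67 members were lower and 0 higher (35.9% of all genes called). Fewer members were called without siH1f0 1, siH1f0 2, siJunb 1 or siJunb 2 than in the fit to all libraries. The share of all genes called there is not given, so a general loss of calls cannot be told apart from one in members. The medians for large and small subunit genes were -0.06 and -0.07 without siH1f0 1, and -0.12 and -0.10 without siH1f0 2.

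Set directly against each other, which leaves the siControl levels out of the fold change, siH1f0 lay below siJunb for many members of both subunits. Of 77 members 17 were called (22.1%), against 25.9% of all genes tested. Rpl4 was the 1 member called higher (12.2% of all genes), at 894 ± 6.19 CPM in siH1f0 and 467 ± 0.69 CPM in siJunb (SD, n = 2 each). Its log2 change was 0.89 ± 0.04 (SE), with an edgeR adjusted p = 9.45e-06. The other 16 were lower (13.8% of all genes), 10 large and 6 small. The medians were -0.12 for large and -0.08 for small subunit genes, against 0.0007 for all genes tested, and -0.07 and -0.03 with total counts as the only scaling. The groups did not overlap for 41 lower (28.7% of all genes) and 10 higher members (43.8% of all genes), while 72.5% of all genes did not overlap.

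Rps15a was the small subunit gene with the largest difference, -0.48 ± 0.07 on the log2 scale (SE, edgeR adjusted p = 0.00153). Rps2 was at 360 and 387 CPM in siH1f0 and 458 and 477 CPM in siJunb, a change of -0.37 (adjusted p = 0.00214), and Rpl15 at 193 and 208 CPM in siH1f0 and 244 and 242 CPM in siJunb, a change of -0.33 (adjusted p = 0.00204). These 3 genes and Rpl4 held their calls under all 16 alternatives. Rps27l was at 62.6 and 63.5 CPM in siH1f0, 77.9 and 83.9 CPM in siJunb, against 79.2 and 67.8 CPM in siControl. It fell by 0.41 ± 0.07 against siJunb (SE, adjusted p = 0.00447), a call lost without siJunb 2 or siH1f0 1. Rpl35 and Rpl7a each fell by 0.33 (adjusted p = 0.00327 and 0.00378), calls lost without siH1f0 1 for both, without siJunb 2 for Rpl35 and without siJunb 1 for Rpl7a. Rpl37, a zinc-binding protein that contacts the large subunit RNA, fell by 0.29 (adjusted p = 0.00699). Rpl28, a large subunit protein that budding yeast lacks, fell by 0.24, Rps23 by 0.23, Rpsa, known also as the laminin receptor precursor, by 0.23, and Rplp0 by 0.22 (adjusted p = 0.0135, 0.00797, 0.0162 and 0.0102). The calls of Rpl37, Rpl28, Rps23, Rpsa and Rplp0 were each lost without any 1 of the 4 knockdown libraries, at adjusted p up to 0.151. Rplp2 was 0.14 higher in siH1f0 without passing the test (edgeR adjusted p = 0.162).

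The siControl libraries enter this comparison through the shared spread. Without siControl 1 the calls were 4 higher and 48 lower, without siControl 2 they were 4 and 45, and with only the 4 libraries compared 4 and 45, when 47%, 46.9% and 48.6% of all genes were called. Without any 1 of the 4 knockdown libraries fewer members were lower than with all 6, and Rpl4 alone was higher. The share of all genes called in those fits is not given, so a general loss of calls cannot be told apart.

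**Figure D5:**
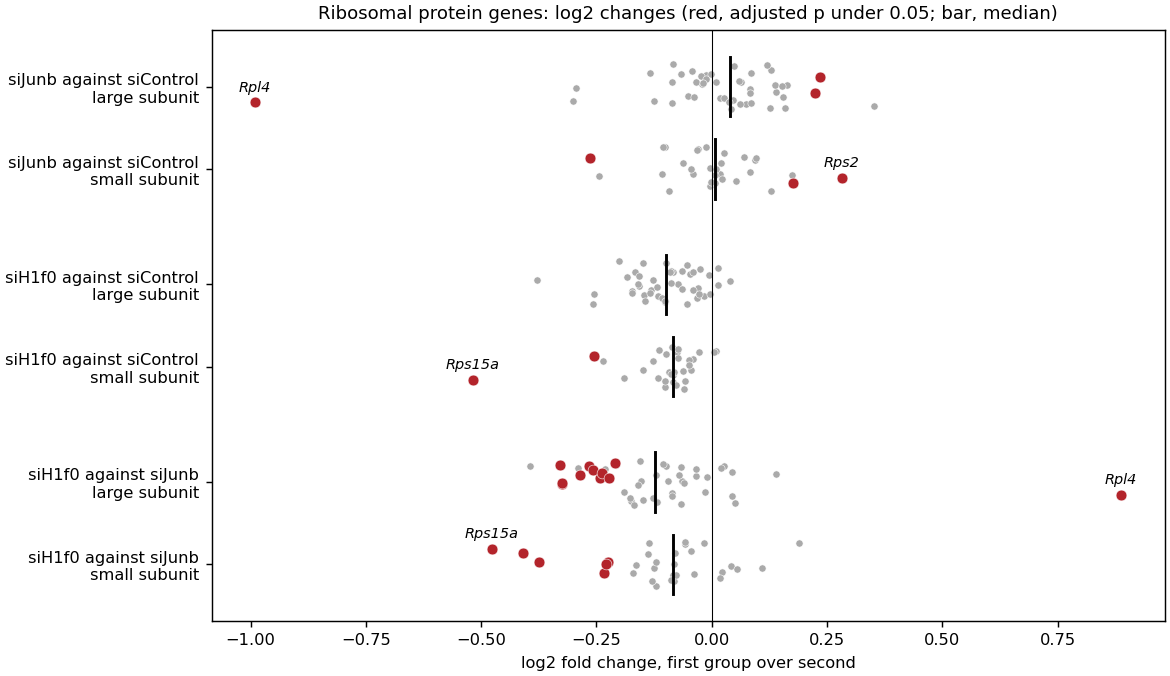
Fitted log2 change of each tested member, first group over second, in rows for the 3 comparisons and both subunits; red points passed at an adjusted p under 0.05, grey points did not, and black bars mark medians. Rpl4 stands alone at -0.99 in siJunb against siControl and at 0.89 in siH1f0 against siJunb, Rps15a is the lowest point of both siH1f0 rows of the small subunit, and nearly all other points lie within 0.4 of 0.

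By place in the ribosome, members with a common site were called singly, in pairs or not at all. Of the 3 genes whose proteins line the exit tunnel, Rpl4 alone was called: Rpl17 differed by -0.01 and Rpl39 by -0.02 in siJunb against siControl (edgeR adjusted p = 0.934 and 0.843). Of the 3 stalk genes, Rplp0 fell in siH1f0 against siJunb, while Rplp1 and Rplp2 were -0.07 and 0.14 and did not pass (adjusted p = 0.543 and 0.162). Rpl5 and Rpl11, which with the small ribosomal RNA of the large subunit form a particle that binds the p53 regulator Mdm2, were within 0.09 of 0 in every comparison. Rpl3, Rpl8 and Rpl10, which reach towards the catalytic centre, were 0.17, 0.14 and 0.20 lower in siH1f0 than in siControl without passing (adjusted p = 0.19, 0.271 and 0.123). Of 5 small subunit genes at the decoding site and the mRNA channel, Rps2 and Rps23 rose in siJunb against siControl and fell in siH1f0 against siJunb. In that class Rps26 was 0.24 lower in siJunb than in siControl without passing (adjusted p = 0.0997). Rps27a, made as a fusion with ubiquitin, was within 0.09 of 0 throughout. Rps6, also named by role, fell by 0.22 in siH1f0 against siJunb (edgeR adjusted p = 0.0227), and how this call fared under the alternatives is not given. Against siControl it was 0.10 in siJunb and -0.13 in siH1f0 without passing (adjusted p = 0.291 and 0.235). The roles were assigned after the values were known.

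Called members came from both sides of the division by TOP start. Among all genes tested, 8.63% rose and 7.82% fell in siJunb against siControl, 2.27% and 4.27% in siH1f0 against siControl, and 12.2% and 13.8% in siH1f0 against siJunb. Of the 22 members with an annotated TOP start, 1 rose and 1 fell in siJunb against siControl, 0 and 1 in siH1f0 against siControl, and 1 and 4 in siH1f0 against siJunb. Of 54 tested members without one, 3 rose and 1 fell, 0 and 1, and 0 and 12 in the same comparisons. The medians in siH1f0 against siJunb were -0.12 with and -0.10 without a TOP start. As printed above, Rps2 and Rps15a have a tract and Rpl15 and Rpl7a do not, though all 4 were lower in siH1f0 than in siJunb. The 29 members that hold snoRNA genes (56 in all) had a median of -0.09 in that comparison and 48 tested members without one a median of -0.12. The difference between these classes was not tested.

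Genes of the same machinery outside the symbol pattern were counted in the same fit to all 6 libraries. Their calls are not given without siControl 1. Among all genes tested, 8.63% rose and 7.82% fell in siJunb against siControl. The shares were 2.27% and 4.27% in siH1f0 against siControl, and 12.2% and 13.8% in siH1f0 against siJunb. Of 7 further ribosomal protein genes tested, 0 rose and 1 fell in siJunb against siControl: Rpl22l1, the paralogue of Rpl22, was at 10.5 ± 0.222 CPM in siJunb and 17.3 ± 1.16 CPM in siControl (SD, n = 2 each) and fell by 0.68 (edgeR adjusted p = 0.00193), while Rpl22 itself was at 176 and 184 CPM in siJunb, against 185 and 165 CPM in siControl. In siH1f0 against siJunb 1 rose, Rpl22l1, and 4 fell, among them Rpl36al (-0.35) and Rps3a1 (-0.27), and in siH1f0 against siControl 0 were called. Of 25 translation factors and other messages of the TOP class, 1 rose and 1 fell in siJunb against siControl, 0 and 2 in siH1f0 against siControl, and 1 and 11 in siH1f0 against siJunb. Eif4a2, an RNA helicase of initiation, fell by 0.44 in siH1f0 against siControl and Eef2, the translocation factor, by 0.17, and Pabpc1, the poly(A)-binding protein, fell by 0.23 in siJunb against siControl.

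Counts for factors that build ribosomes are given beside the shares of all genes tested. Of 74 biogenesis factors, 8 rose and 3 fell in siJunb against siControl (8.63% and 7.82% of all genes, median of the list 0.09). In siH1f0 against siControl 0 rose and 4 fell (2.27% and 4.27% of all genes, median -0.06), and in siH1f0 against siJunb 2 rose and 24 fell (12.2% and 13.8% of all genes, median -0.14). Nip7, which acts in the maturation of large subunit RNA in yeast, was at 43.0 CPM in siH1f0, 58.9 CPM in siJunb and 59.5 CPM in siControl (means of 2 libraries). It fell by 0.48 in siH1f0 against siControl (edgeR adjusted p = 0.00176). Of 20 RNA polymerase I genes 2 rose and 0 fell, 0 and 2, and 0 and 3 in the same 3 comparisons, Ttf1, the termination factor, falling by 0.68 in siH1f0 against siJunb. Of 11 chaperones dedicated to ribosomal proteins 1 rose and 1 fell, 0 and 0, and 1 and 3, and some of them also stand in the biogenesis list. Of 15 snoRNA host genes 0 rose and 3 fell in each comparison with siControl and 0 were called between the knockdowns. Snhg5 was at 19.7 CPM in siH1f0, 18.2 CPM in siJunb and 26.6 CPM in siControl, falling by 0.45 in siH1f0 (adjusted p = 0.00435) and by 0.52 in siJunb (adjusted p = 0.00161) against the same siControl libraries.

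Among 29 regulators of ribosomal protein synthesis, 4 rose and 2 fell in siJunb against siControl (8.63% and 7.82% of all genes). In siH1f0 against siControl 1 rose and 3 fell (2.27% and 4.27% of all genes). In siH1f0 against siJunb 4 rose and 7 fell (12.2% and 13.8% of all genes). Larp1, the TOP-binding protein, averaged 297 CPM in siH1f0, 378 CPM in siJunb and 312 CPM in siControl, and rose by 0.31 in siJunb against siControl (edgeR adjusted p = 0.00339). Myc, an activator of ribosome production, averaged 56.5 CPM in siH1f0, 82.1 CPM in siJunb and 82.5 CPM in siControl, and fell by 0.56 in siH1f0 against siControl (adjusted p = 0.00188). Eif4e, the cap-binding protein, fell by 0.36 in the same comparison. The 75 mitochondrial ribosomal proteins, which form a separate ribosome, had 3 called higher and 6 lower, 0 and 1, and 7 and 12. Their medians were 0.02, -0.04 and -0.08 in siJunb against siControl, siH1f0 against siControl and siH1f0 against siJunb. The shares of all genes to set beside these counts are those given for the regulators. No list was tested as a set, and nothing is claimed for a list beyond these counts.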

How the data were processed

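RNA was isolated by poly(A) selection per the labels' protocols, and the deposited table holds raw counts for each gene symbol. Per the submitters' processing notes, HISAT2, Subread and featureCounts were used with build mm10. No versions, annotation release, strand option or handling of reads with several matches were found (not given in the sources used here), so overlapping genes and pseudogene copies make member counts uncertain. The gene length column of the deposited table gave the levels per kilobase. All 6 columns mapped to samples by name. In R 4.3.3, edgeR 4.0.16 (TMM scaling, filterByExpr, quasi-likelihood F test over the 6 libraries, group alone in the design, 3 residual degrees of freedom) tested all genes, with Benjamini-Hochberg adjustment over 13427 genes and calls at an adjusted p under 0.05. The edgeR fit was tried on simulated counts, drawn apart for each gene with known changes in some genes. The simulation held no gap shared across genes like that between the siControl libraries, so it cannot speak to calls under such a gap. The alternatives changed the scaling (RLE size factors, total counts only), the filter (none, or genes with a mean under 5 CPM removed), the tool (DESeq2 1.42.0, limma-voom with limma 3.58.1) or the data: the replicate number as a block, only the 4 libraries compared, members summed with named pseudogene rows, each library left out in turn and, added after seeing the data, the table without Rn45s. A group left with a lone library takes its spread from the others.

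Members and gene lists were chosen with earlier results of these data known. Named members were up to 12 called per comparison by p, the 3 highest and 3 lowest changes, the 4 highest and 4 lowest levels per kilobase of each subunit, members of set roles with divergent forms, and all that failed the filter; from each other list up to 3 called genes per comparison were eligible. Rpl17, Rpl39, Rpl3, Rpl8, Rpl22 and Rps27l beside Rps27 follow from roles or paralogues. A gene that met the rule is not reported here. Library totals ran from 48690447 to 85979630 counts. Transcript starts, snoRNA genes and shared 50-base words come from GENCODE M21.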

Additional observations from a re-analysis of the deposited data

How the results depend on the processing

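With 2 libraries per group, calls rest on a spread shared across genes, and siControl has the widest gap between its libraries. Rpl4 kept its direction and call in all 16 alternatives, in both comparisons that called it, whereas most counts of called members moved. With no count filter the calls were 7 higher and 6 lower for siJunb against siControl, 16 lower for siH1f0 against siControl, and 3 higher and 25 lower for siH1f0 against siJunb. With only the 4 libraries compared they were 1 and 1, 1 lower, and 4 and 45. Of all genes 8.26%, 2.44% and 48.6% were then called. For the other settings in this paragraph the share of all genes called is not set beside the counts. A general gain or loss of calls cannot be told apart there from one in members. Total counts only gave 1 lower for siH1f0 against siControl and 2 higher for siH1f0 against siJunb, with medians there of -0.074 (large) and -0.0343 (small), and DESeq2 gave 2 higher there. Leaving out 1 library at a time, higher and lower calls ran from 0 to 44 and 1 to 35 for siJunb against siControl, 0 to 7 and 0 to 67 for siH1f0 against siControl, and 1 to 4 and 3 to 48 for siH1f0 against siJunb. The large and small subunit medians then ran from -0.0416 to 0.139 and -0.0863 to 0.121, from -0.169 to -0.0096 and -0.189 to 0.0025, and from -0.151 to -0.1001 and -0.134 to -0.0718, in the same order. In siH1f0 against siControl, the change of some named members depended on the siControl library: without siControl 1 and without siControl 2 it was 0.1495 and -0.0649 for Rpl31, 0.1496 and -0.114 for Rpl38, 0.126 and -0.094 for Rplp2, and 0.0255 and -0.495 for Rpl37a. Rpl38 was also -0.0346 without siH1f0 2. The cause was not tested. The share of counts in members changed by less than the spread between libraries without Rn45s, over tested genes alone or with pseudogene rows added.

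The labels name no batch behind a replicate number. Across the 13427 genes tested, same-numbered libraries did not deviate together (correlation of replicate differences 0.05, -0.04 and 0.06). Across the 77 members alone these correlations were -0.34 for siJunb with siControl, 0.11 for siH1f0 with siControl and -0.24 for siH1f0 with siJunb. With the replicate number as a block, calls of members were 3 higher and 2 lower for siJunb against siControl, 0 and 1 for siH1f0 against siControl, and 1 and 15 for siH1f0 against siJunb. The share of all genes called with the block is not given, so a general change in calls cannot be told apart from one in members.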
